A study of Bos taurus with 6 samples.

Results

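The steroid hormone enzymes were taken from the deposited TPM table as every row whose gene name was HSD3B1, CYP11A1, CYP17A1, CYP19A1, HSD17B4, HSD17B8, HSD17B10, HSD17B12, SRD5A3 or SULT1E1. These 10 symbols gave 12 of the 36075 gene identifiers in the table, because CYP17A1 is listed under 3 identifiers, which were kept apart. In TPM, reads are scaled to gene length and to a library total, so that levels of different genes can be set side by side. Bovine (Bos taurus) embryos were produced in vitro from oocytes of slaughterhouse ovaries, and RNA was measured at the blastocyst stage, when the embryo has formed an outer trophectoderm and an inner cell mass. In the MT-treated group, the oocytes had been matured for 22 h in medium with 1e-07 mol/L melatonin (MT), an indoleamine hormone and antioxidant. In the control group, the maturation medium held no MT, and both groups were then fertilized and cultured in the same way without a further agent being named. Each group had 3 libraries from 3 in vitro production runs. Each library (called a pool below) was made from 3 blastocysts, so the spread between libraries is that of pools and not of single embryos. Oocytes of each run were combined and randomly divided among the treatments, which ran at the same time. The groups could thus share runs, but the labels do not say which libraries do, and the main fit did not pair them. MT was present only during oocyte maturation, and the RNA was therefore taken several days after exposure.

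Steroid hormones are built from cholesterol in a fixed order. CYP11A1 cuts the cholesterol side chain inside mitochondria to give pregnenolone, HSD3B1 turns pregnenolone into progesterone, CYP17A1 leads on to androgens, and CYP19A1, the aromatase, makes estrogens. The HSD17B enzymes were named for the interconversion of weak and potent sex steroids, but several of them work mainly on fatty acids, amino acids or RNA. SULT1E1 inactivates estrogens by adding a sulfate group, and SRD5A3, although it is named as a steroid reductase, is best known for making dolichol, the lipid carrier of protein N-glycosylation. In ruminants, trophoblast cells of the later conceptus and placenta make progesterone and estrogens.

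Over all genes, the libraries of the groups differed widely. The deposited TPM summed to between 936783 and 937698 in the control pools and between 912686 and 913707 in the MT-treated pools. The fit on the deposited TPM did not even out these totals. Between 8854 and 8953 genes were above 0 in the control pools and between 14372 and 14408 in the MT-treated pools, and 61.6% of the 11953 genes tested were called higher in the MT-treated group and 34.1% were called lower (limma on log2(TPM + 1), Benjamini-Hochberg adjusted p under 0.05). The groups did not overlap for 96.1% of the genes tested, so a separation of the groups by itself sets no gene apart. Over the 5988 genes that reached 1 TPM in every library, the median level differed by -0.48 on the log2 scale (MT-treated minus control), and each direction below was also read after this shift was removed (median centring). Because TPM keeps no counts, the number of reads behind a value is unknown, and a gene listed at 0 may have been absent or not captured. The blastocyst label was checked against marker genes. Of 15 tested trophectoderm markers 10 were higher and 5 lower (sums of the list 12741 to 13092 TPM in control, 11756 to 12169 TPM in MT-treated pools), and of 8 inner cell mass markers 4 were higher and 3 lower (502 to 510.4 TPM and 446 to 447 TPM). The trophectoderm keratin KRT8 lay between 6756 and 8828 TPM in all libraries and the pluripotency factor POU5F1 between 188 and 194 TPM. Single markers moved either way. TFAP2A of the trophectoderm had 31.5 to 38.9 TPM in control and 0.46 to 0.55 TPM in MT-treated pools, whereas CDX2 of the trophectoderm and NANOG of the inner cell mass were listed at 0 in every control pool, with 15.0 to 17.2 TPM and 8.23 to 8.93 TPM across the MT-treated pools. Of the hypoblast markers, FN1 and COL4A1, present in both groups, were higher in MT-treated blastocysts, and a further 4 reached the level for testing only through that group. The list summed to between 223 and 226 TPM in control and between 568 and 572 TPM in MT-treated pools, most of it FN1 (means of 206 and 461 TPM), while GATA4 and FOXA2 of that list were at 0 in all libraries. These markers differed between the same groups as the steroid enzymes described below, and their part in any result was not tested. In pooled embryos, fewer cells of a type and less RNA per cell cannot be told apart.

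Of the 12 steroid enzyme identifiers, 7 were above 0 in all 6 libraries. A further 3 were at 0 in every control pool and above 0 in every MT-treated pool, 1 was above 0 in a single library, and 1 was at 0 throughout. A gene was tested where 3 or more libraries reached 1 TPM, which held for 10 identifiers, and the 3 at 0 in control met it only through the MT-treated group. Among these 10, MT-treated blastocysts had 5 higher and 5 lower, where the table as a whole had 61.6% higher and 34.1% lower. The 7 above 0 everywhere also reached 1 TPM in every library, and of these 2 were higher and 5 lower, beside 2177 and 3330 of the 5988 genes of that kind. The groups did not overlap for any of the 10, beside 96.1% of all genes tested. After median centring, 6 were higher and 3 lower (all genes tested: 70.4% higher and 25.4% lower). After quantile normalization, which forces the values of all libraries onto a shared distribution, 4 were higher and 6 lower (all genes tested: 46.4% higher and 44.4% lower). The median log2 fold change of the 7 above 0 everywhere was -0.46, beside -0.27 over the 5988 genes. The shift of -0.48 between the library medians of those genes is another quantity. Whether the list as a whole differs from other genes was not tested. Medians of the lists below are likewise over genes with 1 TPM or more in every library, to be read beside -0.27.

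**Figure D1:**
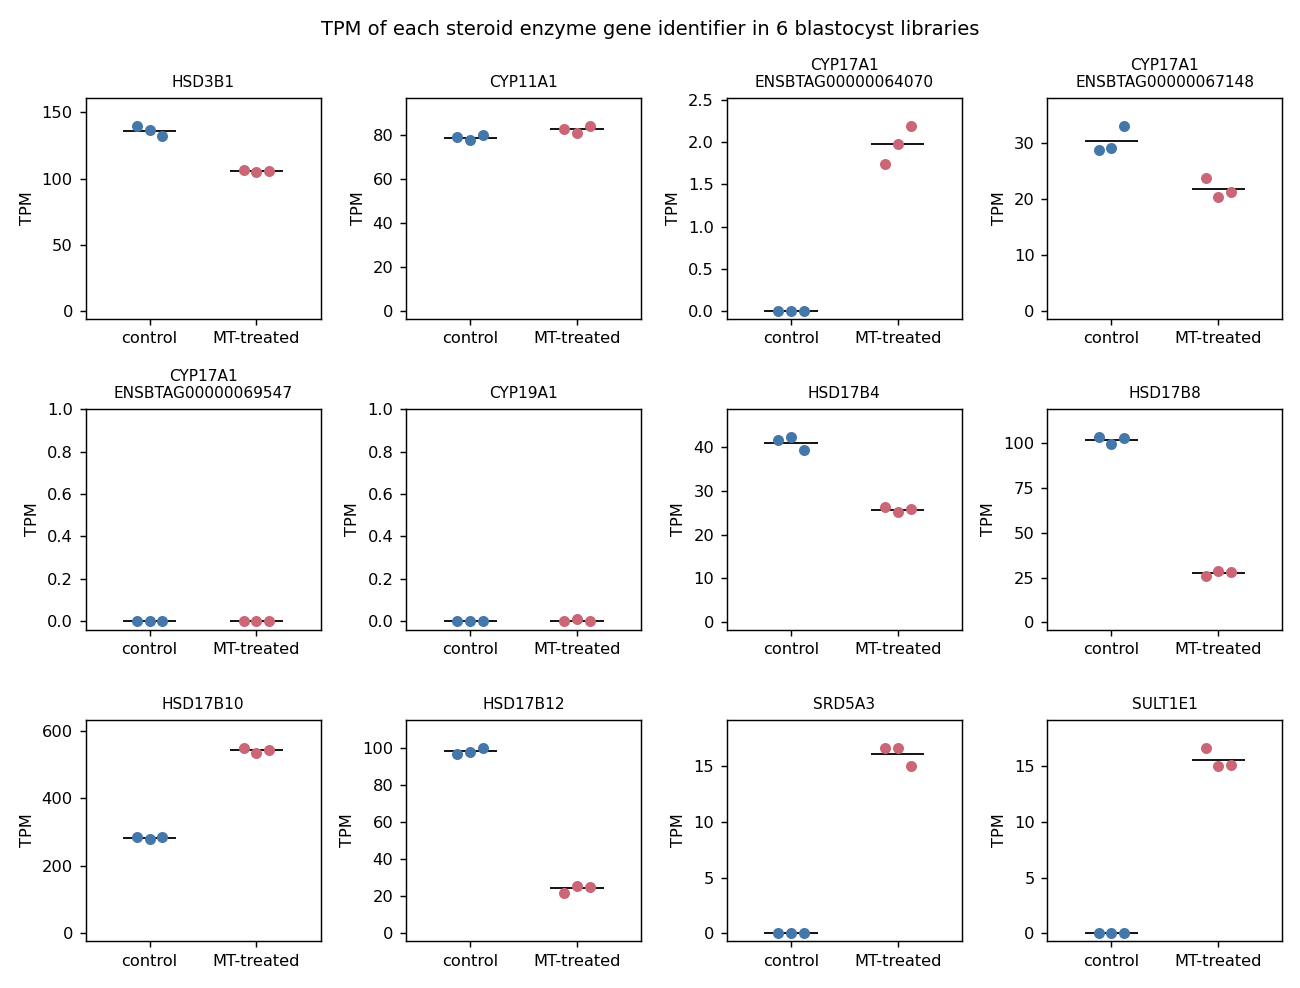
TPM (vertical axes, linear) of the 12 steroid enzyme gene identifiers in the 3 control (blue) and 3 MT-treated (red) libraries; points are libraries and horizontal lines are group means. HSD17B8 and HSD17B12 sit near 100 TPM in control and between 22.1 and 28.9 TPM in MT-treated pools, HSD17B10 sits above 500 TPM only in MT-treated pools, and SRD5A3 and SULT1E1 leave 0 only in MT-treated pools.

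The entry enzymes of steroid synthesis, CYP11A1 and HSD3B1, were expressed in every library, and on the deposited TPM the former was slightly higher and the latter lower in MT-treated blastocysts. CYP11A1 (ENSBTAG00000006934) had 78.9, 77.6 and 79.6 TPM in the control pools and 82.4, 80.9 and 84.1 TPM across the MT-treated pools. All MT-treated values lay narrowly above all control values. CYP11A1 was 1.05 times higher in MT-treated blastocysts, with a log2 fold change of 0.066 ± 0.023 (SE, 95% confidence interval 0.0097 to 0.12, adjusted p = 0.0303 by limma). The difference was wider after median centring (0.55) and quantile normalization (0.35). The call on the deposited TPM was lost without control replicate 1 or 2 and without MT-treated replicate 1 or 3 (log2 fold changes of 0.068, 0.056, 0.067 and 0.053, adjusted p-values of 0.0683, 0.0910, 0.0621 and 0.0663 by limma). HSD3B1 (ENSBTAG00000006769), which makes progesterone from the CYP11A1 product, had 139.9, 136 and 132 TPM in control and 106, 105 and 106 TPM in MT-treated pools. All control values were above all MT-treated values. HSD3B1 was lower by -0.36 ± 0.026 on the log2 scale (SE, adjusted p = 1.40e-05 by limma), but after median centring it was higher, with a log2 fold change of 0.12 (adjusted p = 0.00668 by limma), and after quantile normalization it was lower by -0.083 (adjusted p = 0.0191 by limma). For HSD3B1 the direction therefore followed the scaling.

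Ratios of genes within a library do not depend on its scaling factor. The ratio of HSD3B1 to CYP11A1 was 1.77, 1.76 and 1.66 in control and between 1.26 and 1.295 in MT-treated pools. Each MT-treated pool held less HSD3B1 relative to CYP11A1 than any control pool. The means were 1.73 ± 0.0643 and 1.28 ± 0.0215 (SD, n = 3 each). In both groups HSD3B1 was thus the more abundant transcript of the pair. HSD3B1 ranked above 88.6% of detected genes in control and 92.3% in MT-treated blastocysts, and CYP11A1 above 81.4% and 90.4%, with more genes detected in the MT-treated group.

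CYP17A1, which hydroxylates progestogens and splits them into androgen precursors, is listed under 3 identifiers, and these did not move alike. ENSBTAG00000067148 had 28.7, 29.1 and 33.1 TPM in control and 23.7, 20.3 and 21.3 TPM in MT-treated pools. The groups did not overlap, with coefficients of variation of 7.98% and 8.12%. Its log2 fold change was -0.46 (95% confidence interval -0.65 to -0.27, adjusted p = 0.00137 by limma), whereas after median centring it was 0.022 and not called (adjusted p = 0.791 by limma), and after quantile normalization it was -0.47. ENSBTAG00000064070 was listed at 0 in every control pool and had 1.74, 1.98 and 2.19 TPM across the MT-treated pools, a level higher than 30.1% of detected genes. It met the level for testing only through the MT-treated group, and its direction turned under quantile normalization, where the control zeros are tied, so no test is given for it. ENSBTAG00000069547 was at 0 in all 6 libraries, and it is the one of the 3 rows that carries the NCBI description of the CYP17A1 gene. The other 2 rows carry the symbol without a description. The table does not show how similar the 3 loci are, and reads shared between similar genes could have been assigned to any of them or dropped, so the level of the canonical gene is uncertain. With ENSBTAG00000067148 taken as CYP17A1, the ratio of CYP11A1 to CYP17A1 was 2.61 ± 0.177 in control and 3.80 ± 0.285 in MT-treated pools (SD, n = 3 each), with no overlap. The ratio of HSD3B1 to CYP17A1 was 4.51 ± 0.467 and 4.86 ± 0.349 (SD, n = 3 each), and here the groups overlapped.

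CYP19A1 (ENSBTAG00000014890), the aromatase, was at 0 in every control pool, and its MT-treated values were 0, 0.01 and 0 TPM. It was not tested. CYP19A1 and CYP11A1 are also typical of granulosa cells, which surround the oocyte and could be carried into an embryo sample. By the methods, these surrounding cells were pipetted off the zygotes, which were then washed before embryo culture. Of 14 granulosa and cumulus marker genes in the table, 9 were at 0 in all 6 libraries, among them FOXL2, INHA, HAS2 and PTX3, and 4 stayed under 1 TPM. The exception was the FSH receptor FSHR, with 17.2, 19.2 and 18.1 TPM in control and 17.1, 16.0 and 15.0 TPM in MT-treated pools, called lower, but higher after median centring (log2 fold change 0.31). The summed level of that marker list was between 17.2 and 19.3 TPM in control and between 15.3 and 17.2 TPM in MT-treated pools.

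**Figure D2:**
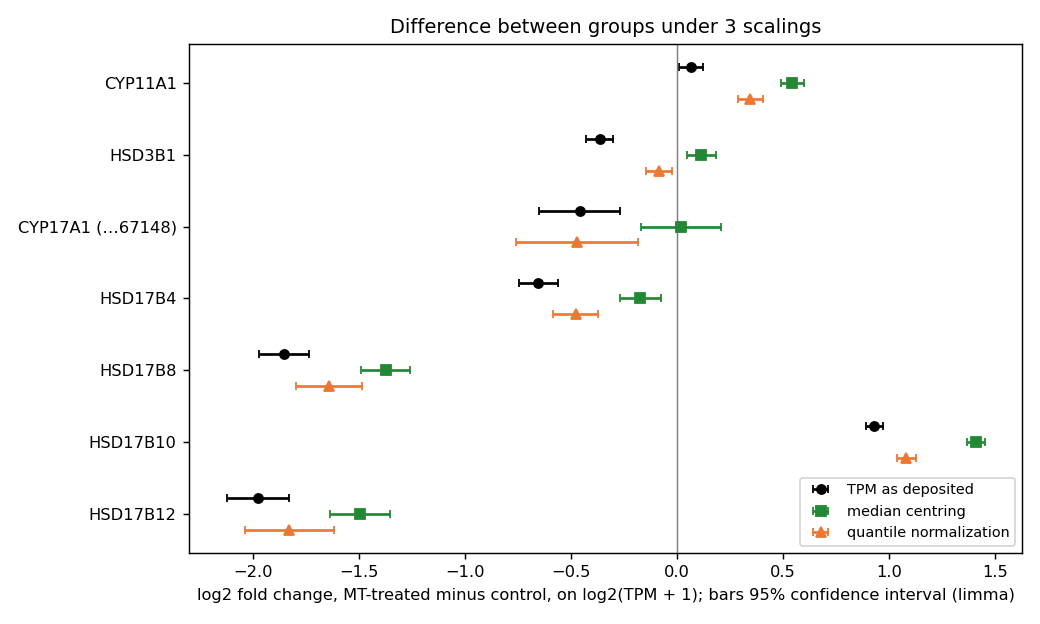
Log2 fold change of MT-treated against control blastocysts on the log2(TPM + 1) scale (horizontal axis) for the 7 steroid enzyme identifiers above 0 in all 6 libraries, under the deposited TPM (black circles), median centring (green squares) and quantile normalization (orange triangles). Bars are 95% confidence intervals from limma; HSD17B4, HSD17B8 and HSD17B12 stay below 0 and HSD17B10 and CYP11A1 above 0 under the 3 scalings, whereas HSD3B1 and CYP17A1 cross 0 with median centring.

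The HSD17B enzymes moved in opposite directions, with HSD17B10 higher and HSD17B4, HSD17B8 and HSD17B12 lower in MT-treated blastocysts under all 3 scalings. HSD17B10 (ENSBTAG00000017779), a mitochondrial dehydrogenase of isoleucine breakdown that is also a subunit of mitochondrial ribonuclease P, had 286, 279.6 and 284 TPM in control and 549, 533 and 543 TPM in MT-treated pools. Every MT-treated value was above every control value, and the coefficients of variation were 1.17% and 1.45%. Its level was 1.91 times higher in MT-treated blastocysts, or 0.93 ± 0.017 on the log2 scale (SE, adjusted p = 1.31e-08 by limma), and it also came out higher with median centring (1.41) and with quantile normalization (1.08). HSD17B10 was the most abundant member in all libraries and ranked above 98.2% of detected genes in MT-treated blastocysts. The tested genes with a symbol whose 6 values lay nearest to it, by Euclidean distance on the log2(TPM + 1) scale, were PGAM1 (distance 0.0909), NDUFC2 (0.339) and PPP1R14A (0.411). PGAM1 had means of 286 and 556 TPM in control and MT-treated blastocysts.

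HSD17B12 (ENSBTAG00000000087), the reductase of the very-long-chain fatty acid elongation cycle that can also reduce estrone to estradiol, had 96.7, 97.7 and 99.97 TPM in control and 22.1, 25.7 and 25.1 TPM in MT-treated pools. The lowest control value was more than 3 times the highest MT-treated value. The fall was 4.04-fold in the group means, or -1.97 ± 0.059 on the log2 scale (SE, adjusted p = 1.59e-07 by limma). HSD17B8 (ENSBTAG00000020927), which oxidizes estradiol and forms a reductase of mitochondrial fatty acid synthesis together with CBR4, had 104, 99.7 and 103 TPM in control and 25.6, 28.9 and 28.2 TPM in MT-treated pools. Here too the groups lay far apart, and the fall was 3.70-fold in the group means (log2 fold change -1.85 ± 0.048 SE, adjusted p = 8.02e-08 by limma). HSD17B4 (ENSBTAG00000006978), the multifunctional enzyme of peroxisomal beta-oxidation, had 41.5, 42.3 and 39.2 TPM in control and 26.2, 25.1 and 25.8 TPM in MT-treated pools. The groups did not overlap, but the fall of 1.59-fold was smaller than for HSD17B8 and HSD17B12 (log2 fold change -0.65 ± 0.037 SE, adjusted p = 4.24e-06 by limma). All 3 genes stayed lower with both other scalings, where HSD17B4 had log2 fold changes of -0.17 and -0.48. Relative to HSD17B12, HSD17B10 rose from a ratio of 2.89 ± 0.0600 to 22.4 ± 2.18, and relative to HSD17B8 from 2.78 ± 0.0240 to 19.7 ± 1.54 (SD, n = 3 each).

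The whole HSD17B family had 12 identifiers, of which 8 were above 0 in any library. Control blastocysts had a summed family TPM of 604.98 ± 2.33, and MT-treated blastocysts of 744 ± 6.21 (SD, n = 3 each). HSD17B10 made up 46.8% ± 0.370 of this sum in control and 72.7% ± 0.454 in MT-treated blastocysts, whereas HSD17B8 went from 16.9% ± 0.278 to 3.71% ± 0.259 and HSD17B12 from 16.2% ± 0.292 to 3.27% ± 0.287 (SD, n = 3 each). HSD17B11, a lipid droplet enzyme, kept a similar share, 13.3% ± 0.430 and 14.3% ± 0.237 (SD, n = 3 each), while its level was higher in MT-treated blastocysts (80.5 ± 2.32 against 106 ± 1.79 TPM, adjusted p = 1.26e-05 by limma). HSD17B14 was listed at 0 in every control pool and had 11.2, 10.2 and 11.1 TPM across the MT-treated pools. HSD17B13 had 0, 0.02 and 0.02 TPM in control and 7.25, 6.89 and 7.46 TPM in MT-treated pools, and was not called after quantile normalization. HSD17B7 of cholesterol synthesis had 0.70, 1.16 and 0.97 TPM across the MT-treated pools only. HSD17B1, HSD17B2, HSD17B3 and HSD17B6 were at 0 in all 6 libraries, and these include the enzymes best known for making potent estrogens and androgens.

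**Figure D3:**
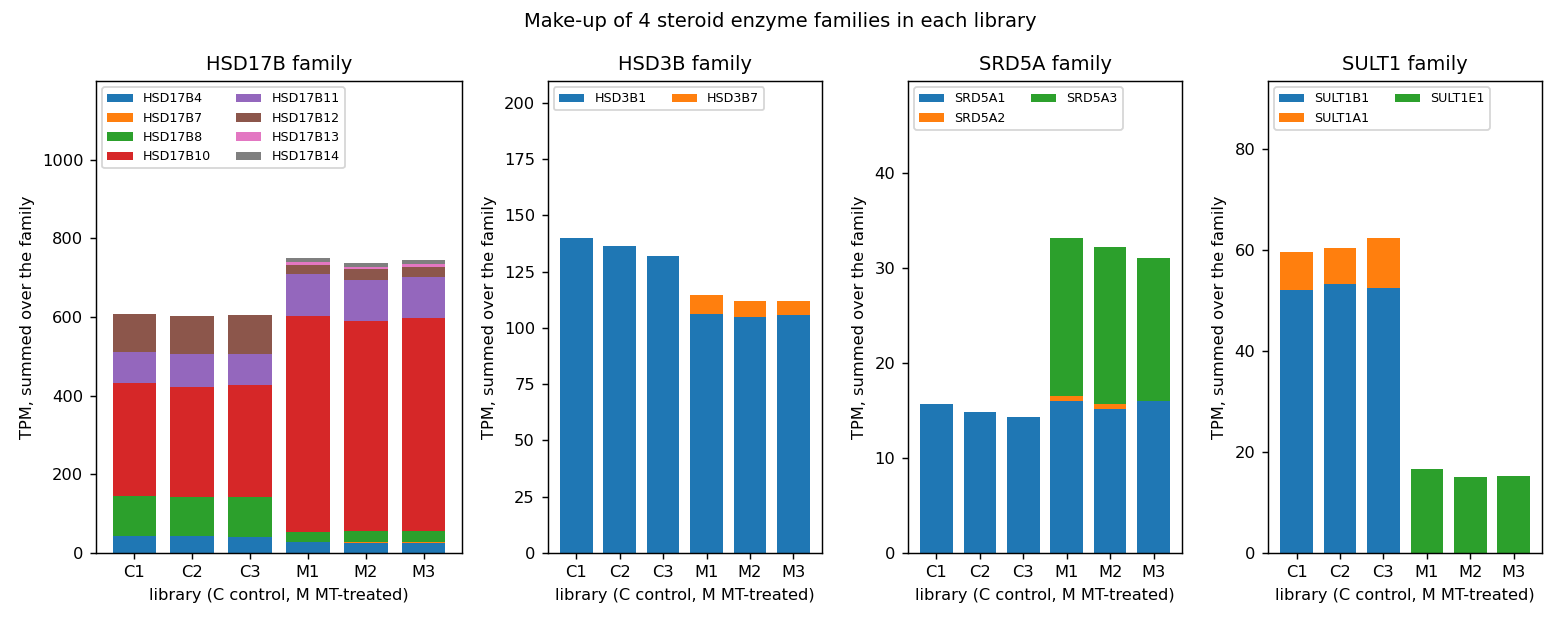
Summed TPM (vertical axes, linear) of the HSD17B, HSD3B, SRD5A and SULT1 families in each library (C1 to C3 control, M1 to M3 MT-treated), stacked by gene; genes at 0 in all libraries are left out. The red HSD17B10 segment fills 46.8% of the HSD17B column on average in control and 72.7% in MT-treated pools, and the SULT1 columns hold SULT1B1 and SULT1A1 in control but SULT1E1 alone in MT-treated pools.

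SRD5A3 and SULT1E1 were listed above 0 in MT-treated blastocysts only. SRD5A3 (ENSBTAG00000014913) was listed at 0 in every control pool and had 16.6, 16.6 and 15.0 TPM across the MT-treated pools. It met the level for testing only through the MT-treated group, so no test is given for it or for the genes at 0 in a whole group below. It ranked above 63.1% of detected genes there. SRD5A1, an isoenzyme that reduces testosterone and progesterone, was present in both groups, with 15.6, 14.8 and 14.4 TPM in control and 16.0, 15.2 and 16.0 TPM in MT-treated pools. The groups overlapped, and SRD5A1 was not called (log2 fold change 0.07, adjusted p = 0.157 by limma), although it was higher after median centring and lower after quantile normalization. SRD5A2 had 0.57, 0.49 and 0 TPM across the MT-treated pools and 0 in control. The family thus consisted of SRD5A1 alone in control pools, while SRD5A3 made up 50.03%, 51.5% and 48.3% of the family in the MT-treated pools.

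SULT1E1 (ENSBTAG00000011952), the estrogen sulfotransferase, was at 0 in every control pool and had 16.7, 15.0 and 15.1 TPM across the MT-treated pools. Of its relatives, SULT1B1 and SULT1A1 showed the reverse pattern, while SULT1C2, SULT1C3 and both SULT1C4 identifiers were at 0 in every library. SULT1B1, which sulfates phenols and thyroid hormones, had 52.1, 53.3 and 52.4 TPM in control and was at 0 in every MT-treated pool. SULT1A1, a phenol sulfotransferase, had 7.61, 7.03 and 9.91 TPM in control and was also at 0 in every MT-treated pool. The SULT1 genes listed above 0 thus were SULT1E1 in MT-treated pools and SULT1B1 and SULT1A1 in control pools, although a listed 0 may mean that a gene was not captured. Widely expressed genes such as PEX5 and PAPSS1 were also at 0 in every control pool. The summed SULT1 level was 60.8 ± 1.37 TPM in control and 15.6 ± 0.914 TPM in MT-treated blastocysts (SD, n = 3 each). In the HSD3B family, HSD3B7 of bile acid synthesis was at 0 in every control pool and had 8.23, 7.14 and 6.49 TPM across the MT-treated pools, beside the far more abundant HSD3B1.

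Of 92 tested genes that share the steroid pathway with these enzymes or work beside them, MT-treated blastocysts had 48 higher and 35 lower (52.2% and 38.0%, beside 61.6% and 34.1% of all genes tested). Median centring gave 61 higher and 29 lower, and quantile normalization gave 39 higher and 48 lower. Of the 48 higher genes, 27 were at 0 in every control pool, as were 4037 of the 7367 higher genes in the whole table.

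**Figure D4:**
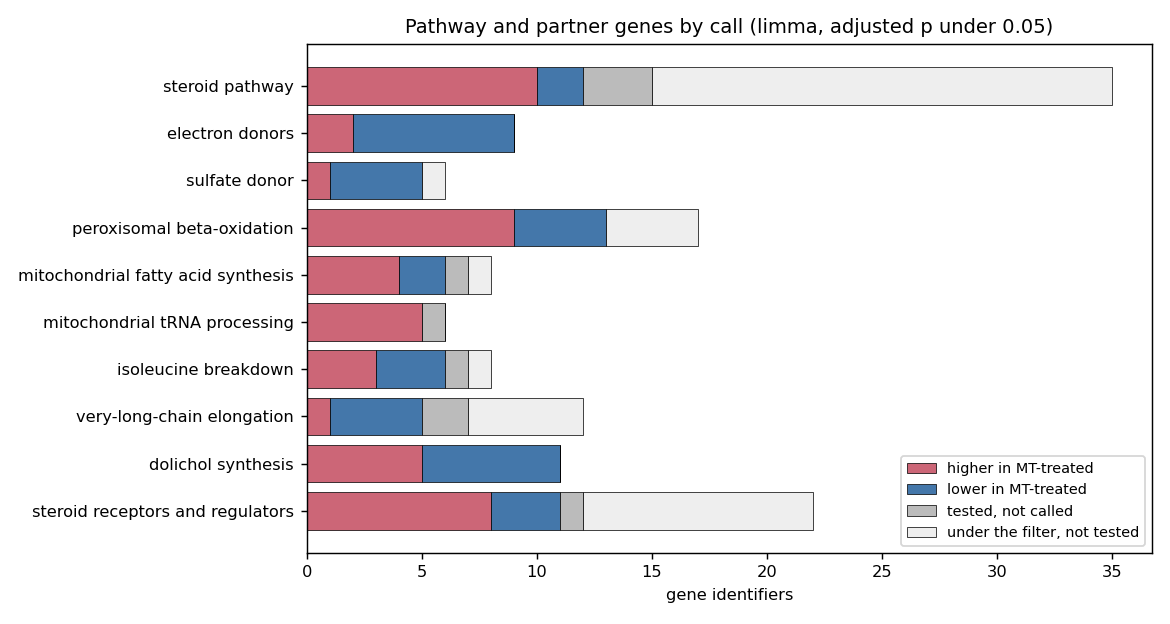
Number of gene identifiers (horizontal axis) in each list of pathway and partner genes, divided into those higher (red) or lower (blue) in MT-treated blastocysts by limma at an adjusted p-value under 0.05, those tested and not called (grey) and those under the level required for testing (pale). The steroid pathway list has 10 higher, 2 lower and 20 untested identifiers, and the electron donors have 2 higher and 7 lower.

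Of 35 other genes of steroid synthesis and breakdown in the table, 19 were above 0 in any library and 15 were tested. Of these 10 were higher and 2 lower (66.7% and 13.3%, beside 61.6% and 34.1% of all genes tested), with 13 against 2 after median centring and 8 against 5 after quantile normalization. Of the 10 higher genes, 6 were at 0 in every control pool, a share near that over all genes given above. The median log2 fold change was 0.052 over 6 genes. HSDL1, a dehydrogenase-like protein of mitochondria, was at 0 in control and had 12.4, 11.9 and 11.9 TPM across the MT-treated pools. CYP3A74, a cytochrome of steroid hydroxylation, fell from 23.0 ± 0.797 to 5.97 ± 0.455 TPM (SD, n = 3 each, adjusted p = 2.09e-07 by limma). The steroid sulfatase STS, which reverses sulfation, was at 0 in control and had 5.24, 8.79 and 7.68 TPM across the MT-treated pools. STAR, which brings cholesterol to CYP11A1, did not exceed 0.17 TPM in any library, and CYP11B1 and CYP21A2 of corticosteroid synthesis were at 0 in all 6 libraries.

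The steroidogenic P450 enzymes need electrons, which ferredoxin and its reductase bring in mitochondria and POR and cytochrome b5 in the endoplasmic reticulum. Of 9 such donors tested, 2 were higher and 7 lower (22.2% and 77.8%, beside 61.6% and 34.1% of all genes tested), whereas after median centring 4 were higher and 3 lower (all genes 70.4% and 25.4%). Quantile normalization gave 1 higher and 6 lower. The median log2 fold change was -0.46 over 8 donors. CYB5A, which favours the androgen-forming step of CYP17A1, fell from 25.04 ± 1.71 to 1.85 ± 0.1998 TPM and POR, the partner of CYP17A1 and CYP19A1, from 47.7 ± 2.11 to 15.3 ± 1.32 TPM (SD, n = 3 each, adjusted p-values of 4.05e-08 and 1.04e-06 by limma). Both were lower under the other scalings too. FDXR, the mitochondrial reductase behind CYP11A1, rose from 2.49 ± 0.123 to 7.503 ± 0.431 TPM (SD, n = 3 each), although it was lower after quantile normalization. CYB5R1 was at 0 in control and had 14.2, 12.6 and 13.8 TPM across the MT-treated pools. FDX1, which passes electrons to CYP11A1, fell from 91.8 ± 0.430 to 67.7 ± 2.66 TPM (SD, n = 3 each). After median centring FDX1 was not called.

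SULT1E1 uses the sulfate donor PAPS. Of 5 tested genes that make PAPS, transport it or clear its spent form, 1 was higher and 4 lower (20.0% and 80.0%, beside 61.6% and 34.1% of all genes tested). The 4 lower genes transport PAPS or clear its spent form and do not make it. The counts stood at 1 and 4 under both other scalings as well (all genes 70.4% and 25.4% after median centring, 46.4% and 44.4% after quantile normalization), and the median log2 fold change over the 4 genes with 1 TPM or more in every library was -1.42, beside -0.27 over all such genes. PAPSS1, the only tested gene of the list that makes PAPS, was at 0 in control and had 17.5, 18.4 and 16.9 TPM across the MT-treated pools. PAPSS2 was at 0 throughout. BPNT1, which clears the spent donor, fell from 28.2 ± 0.885 to 2.19 ± 0.181 TPM, and the Golgi PAPS transporter SLC35B2 fell from 19.6 ± 1.58 to 5.52 ± 0.273 TPM (SD, n = 3 each).

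Partners of the HSD17B enzymes moved in both directions. In peroxisomal beta-oxidation, where HSD17B4 acts, 9 of 13 tested genes were higher and 4 lower, shares of 69.2% and 30.8% that are near those of all genes tested (61.6% and 34.1%). Under both other scalings more of them were higher as well (9 against 4 and 7 against 5). The same held for all genes tested (70.4% against 25.4% after median centring, 46.4% against 44.4% after quantile normalization). The thiolase ACAA1, which takes over products of HSD17B4, was at 0 in control and had 78.6, 74.2 and 82.8 TPM across the MT-treated pools, and ACOX3 was at 0 in control and had 42.3, 40.97 and 44.2 TPM. SCP2, which also encodes a peroxisomal thiolase, was present in both groups and fell from 301 ± 4.28 to 180 ± 5.15 TPM (SD, n = 3 each). It was lower under all 3 scalings. PEX5, the import receptor that carries HSD17B4 into peroxisomes, was at 0 in control and had 12.5, 13.0 and 11.1 TPM. In contrast, PEX13 of the import pore had 13.7, 12.9 and 13.2 TPM in control and 0.02, 0 and 0 TPM in MT-treated pools. The median log2 fold change was -0.74 over 5 genes, since most of the higher ones were under 1 TPM in control.

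In mitochondrial fatty acid synthesis, 4 of 7 tested genes were higher and 2 lower (57.1% and 28.6%, near the 61.6% and 34.1% of all genes tested), and the median log2 fold change was -0.21 over 4 genes. CBR4, the partner subunit of HSD17B8, fell like HSD17B8, from 155 ± 6.92 to 82.5 ± 1.65 TPM (SD, n = 3 each, adjusted p = 7.44e-07 by limma), and was lower under all 3 scalings. LIAS of lipoate synthesis fell from 84.5 ± 0.973 to 53.9 ± 0.469 TPM (SD, n = 3 each). LIPT2 and OXSM were at 0 in control, with 38.6, 38.9 and 44.1 TPM and 19.2, 19.0 and 17.0 TPM across the MT-treated pools. In mitochondrial tRNA processing, where HSD17B10 acts, 5 of 6 tested genes were higher and none lower by limma (83.3% higher, beside 61.6% of all genes tested), while quantile normalization gave 4 higher and 2 lower. Of the 5, 3 were at 0 in every control pool and met the level for testing only through the MT-treated group. PRORP, the nuclease subunit beside HSD17B10, was at 0 in control and had 11.5, 10.9 and 11.3 TPM across the MT-treated pools, and TRMT5 was at 0 in control and had 19.8, 20.3 and 18.9 TPM. TRMT10C, the subunit that binds HSD17B10 directly, had 38.8, 42.9 and 41.3 TPM in control and 36.8, 40.1 and 37.96 TPM in MT-treated pools. These groups overlapped, and TRMT10C was not called on the deposited TPM but was higher after the other scalings.

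In isoleucine breakdown, the other pathway of HSD17B10, 3 of 7 tested genes were higher and 3 lower (42.9% each, beside 61.6% and 34.1% of all genes tested). Either other scaling gave 4 higher and 3 lower, and the median log2 fold change was 0.076 over 5 genes. BCKDHB rose from 118 ± 1.54 to 163 ± 1.12 TPM and BCAT1 fell from 85.5 ± 2.47 to 46.5 ± 1.25 TPM (SD, n = 3 each). DBT was at 0 in control, with 13.4, 13.7 and 13.2 TPM across the MT-treated pools, and BCAT2 had 5.87, 5.83 and 6.25 TPM in control and 0 in every MT-treated pool. In very-long-chain fatty acid elongation, where HSD17B12 acts, 1 of 7 tested genes was higher and 4 lower (14.3% and 57.1%, beside 61.6% and 34.1% of all genes tested), but after median centring 4 were higher and 3 lower (all genes 70.4% and 25.4%). Quantile normalization gave 2 higher and 5 lower (all genes 46.4% and 44.4%). The median log2 fold change was -0.33 over 6 genes. HACD2, the dehydratase that follows HSD17B12, fell from 308 ± 11.1 to 109 ± 6.55 TPM (SD, n = 3 each, adjusted p = 2.81e-07 by limma), and the elongase ELOVL6 fell from 160.5 ± 3.48 to 92.6 ± 0.415 TPM (SD, n = 3 each, adjusted p = 9.02e-08 by limma). Both were lower under all 3 scalings, as was TECR, which completes the cycle (231 ± 8.04 and 155 ± 3.61 TPM, SD, n = 3 each), though after median centring by only -0.088. Other genes with 1 TPM or more in every library moved less. HACD3 (means 38.1 and 37.2 TPM) was not called and ELOVL1 (255 and 239 TPM) was lower, but both were higher after either other scaling. ELOVL5 (23.1 and 21.6 TPM) was not called, but was higher after median centring and lower after quantile normalization. ELOVL4 was at 0 in control and had 1.38, 1.19 and 1.92 TPM across the MT-treated pools.

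The dolichol list held genes that make or recycle dolichol, where SRD5A3 acts, and genes that use dolichol phosphate to transfer sugars. Of its 11 tested genes, 5 were higher and 6 lower (45.5% and 54.5%, beside 61.6% and 34.1% of all genes tested). Genes of both kinds were among the higher and among the lower ones, so these counts do not describe dolichol synthesis alone. After median centring 6 were higher and 5 lower (all genes 70.4% and 25.4%). Quantile normalization left 2 higher and 9 lower (all genes 46.4% and 44.4%), and the median log2 fold change was -1.14 over 9 genes. DHRSX, which works with SRD5A3 in the step from polyprenol to dolichol, moved opposite to it and fell from 37.1 ± 0.578 to 1.62 ± 0.396 TPM (SD, n = 3 each, adjusted p = 1.23e-07 by limma). DPAGT1, which places the first sugar on dolichol phosphate, fell from 65.1 ± 1.85 to 9.06 ± 0.784 TPM (SD, n = 3 each, adjusted p = 3.85e-08 by limma). DHDDS, a subunit of the enzyme that builds the polyprenol chain, and DOLPP1 were at 0 in control, with 2.63, 1.59 and 2.34 TPM and 2.13, 1.94 and 1.77 TPM across the MT-treated pools.

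Among steroid receptors and regulators of steroidogenic genes, 8 of 12 tested genes were higher and 3 lower, with 6 higher and 6 lower under quantile normalization, shares near those of all genes tested (61.6% and 34.1%, and 46.4% and 44.4% after quantile normalization). The median log2 fold change was -0.32 over the 6 genes with 1 TPM or more in every library, opposite in sign to the count, and beside -0.27 over all such genes. The estrogen receptor ESR1 was at 0 in every control pool and had 15.1, 13.6 and 14.1 TPM across the MT-treated pools. The transcription factor GATA6 had 0.34, 0.44 and 0.20 TPM in control and 30.8, 32.1 and 33.1 TPM in MT-treated pools, and it is also among the hypoblast markers above. The mineralocorticoid receptor NR3C2 fell from 71.1 ± 2.61 to 17.2 ± 1.63 TPM and the membrane progesterone-binding protein PGRMC2 from 81.0 ± 3.23 to 40.6 ± 0.772 TPM (SD, n = 3 each). NR5A1, the main activator of steroidogenic genes in gonads and adrenals, and its relative NR5A2 were at 0 in all 6 libraries, as were PGR, the progesterone receptor, and ESR2.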

How the data were processed

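RNA from 6 pools of bovine blastocysts was measured. The values deposited by the authors are TPM per gene, to 2 decimals. They checked reads with FastQC, trimmed them with fastp, aligned them with STAR and counted genes with featureCounts; the step to TPM is not given in the sources used here. The methods name ARS-UCD1.3 and Smart-seq2, the labels' processing notes ARS-UCD1.2 and the protocol a TruSeq kit. TPM holds no counts, so counting error is unknown. The study reports the sequencing depth of each replicate in its supplement, which was not used here.

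Genes reaching 1 TPM in 3 or more libraries entered the fit as log2(TPM + 1) with limma 3.58.1 (R 4.3.3, eBayes with trend), with Benjamini-Hochberg adjustment at 0.05. A fold change on this scale understates that of low genes, and a fitted difference against a group at 0 is no fold change. With 3 libraries a group, an exact permutation test cannot go below p = 0.1. The fit was tested on simulated data. The p-values measure the spread between these pools, which was narrow. Among the 7 members above 0 in every library, coefficients of variation within a group ran from 0.758% to 8.12%. How much of this spread is between runs and how much is technical was not tested.

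Named genes were all members, isoenzymes of 4 families and per list up to 2 called genes with the largest and 2 with the most negative log2 fold change among those without overlap, and the 3 genes nearest to the most abundant member. A gene that this rule names is not reported here. Members and lists were chosen with earlier results of these data known, from general knowledge; 134 of 143 partner symbols were in the table. STS, STAR, FDX1, PEX5, SCP2, TECR, HACD3, ELOVL1, ELOVL5, TRMT10C, marker genes, neighbours and genes given as 0 throughout were named for their role after their values were seen. RefSeq names (ARS-UCD2.0) gave neighbouring genes; no coordinates were used.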

Additional observations from a re-analysis of the deposited data

How the results depend on the processing

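Of 129 alternative values for the 10 tested identifiers, 121 kept the direction and the call. Median centring left 3 identifiers lower instead of 5 and turned HSD3B1 and CYP17A1 (ENSBTAG00000067148) to log2 fold changes of 0.12 and 0.022, the latter not called. Quantile normalization turned CYP17A1 (ENSBTAG00000064070) to a fitted difference of -0.33, which is no fold change because its control pools are at 0 and tied. CYP11A1, with 0.066 in eBayes without trend (adjusted p = 0.0520 by limma), was no longer called there, and with each library left out in turn it lay between 0.053 and 0.080. The cause of these changes was not tested, except that centring adds the same amount to every gene. Libraries of equal replicate number showed no shared deviation from their group means (correlations -0.011, -0.001 and 0.059). With 3 libraries a group, this cannot show whether they came from the same run. With the replicate block, 5 identifiers were higher and 5 lower, and no identifier changed its call. A pseudocount of 0.1, no filter and a minimum TPM of 5 changed no call of an identifier, but under the last ENSBTAG00000064070 was not tested. Because the number of reads behind a TPM value is unknown, values under 1 TPM support no difference.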

Other observations

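The genes beside the members on the chromosome were read from RefSeq (ARS-UCD2.0), where no protein-coding gene overlapped a member. Neighbours moved either way, and how often genes side by side differ in the whole table was not tested. TTC17 (17.9, 19.3 and 18.9 TPM in control, 7.26, 7.05 and 7.57 TPM in MT-treated libraries) fell like HSD17B12 beside it, and TNFAIP8 (30.3, 34.0 and 32.9 TPM, and 8.77, 18.5 and 13.5 TPM) fell like HSD17B4. SLC39A7, beside HSD17B8, had 0.02, 0 and 0 TPM in control and 21.8, 23.9 and 24.3 TPM in MT-treated libraries, and ALKBH3, beside HSD17B12, had 0.04, 0 and 0 TPM and 30.6, 29.6 and 27.3 TPM, whereas both members fell. HUWE1, beside HSD17B10, had 84.4, 88.7 and 81.5 TPM in control and 16.4, 17.0 and 18.7 TPM in MT-treated libraries, whereas HSD17B10 rose. TMEM165, beside SRD5A3, also fell, while KDR on the other side was at 0 in control with 35.0, 34.3 and 40.5 TPM in MT-treated libraries. The milk protein gene CSN1S1, beside SULT1E1, had 101, 105 and 93.6 TPM in control and 0 in every MT-treated library.

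Markers of blood and sperm, cells that could be carried into an embryo sample, were mostly at 0. The hemoglobin gene HBB was at 0 in control and had 23.2, 24.8 and 23.9 TPM in MT-treated libraries, HBA had 32.8, 33.9 and 35.0 TPM and 127, 129 and 147 TPM, and TNP1 of spermatids had 65.0, 59.6 and 61.4 TPM in control and 0 in every MT-treated library. PTPRC, CD68, PRM1, PRM2, ODF1 and AKAP4 were at 0 in all 6 libraries. Their part in the levels of the steroid enzymes was not tested.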
